A study of Mus musculus with 10 samples.

Results

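The cells described here, labelled as macrophages, came from mouse skin wounds. They were sorted by efferocytosis, the uptake of apoptotic cells, into a positive (Eff+) and a negative (Eff-) population. The messenger RNA of each sort was sequenced. Members were taken from the sample titles and the matching count columns, which gave 6 of the 10 libraries of the study, 3 Eff+ and 3 Eff-. All 6 came from LysMCreER/mTmG mice that had received tamoxifen for 6 days and whose wounds were taken at day 3, so by the labels both groups share the same alleles and drug. The other 4 libraries, used in 1 comparison at the end, came from wild-type bone marrow cells grown for 7 days with GM-CSF, a myeloid growth factor, and sorted as Eff+ (2 libraries) or Eff- (2 libraries). Their labels give 12 h with apoptotic fibroblasts for all 4, but the names of the Eff- columns contain NOAC, which is not explained, so whether these cells met apoptotic fibroblasts is not settled. LysMCreER places a tamoxifen-dependent Cre recombinase under the lysozyme M locus, which is active in neutrophils as well as in monocytes and macrophages. mTmG is a reporter that switches from membrane tdTomato to membrane GFP after recombination. The gates that defined Eff+ and Eff-, the age and sex of the mice and any pooling of animals are absent from the labels, nor do these say that replicates are separate animals, so p-values measure the spread between these libraries, which may be technical.

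Efferocytosis is the engulfment of dying cells. A phagocyte recognises phosphatidylserine on the dying cell through receptors such as Stabilin-1 or through soluble bridging proteins such as C1q and Gas6, which links it to MerTK. It then encloses the corpse with an actin cup driven by Rac, passes the phagosome through Rab-controlled fusion steps to the lysosome, and must store, export or burn the lipids, sugars and amino acids that digestion releases. In a skin wound of this age neutrophils are abundant and dying, and monocyte-derived macrophages are the main cells that clear them.

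The libraries held 39735437 to 57308823 counts over 17575 to 19972 detected genes. The composition of the groups differed. In the Eff+ libraries 217, 174 and 205 genes held as many counts as all other genes together, against 323, 324 and 276 in the Eff- libraries, with values here and below given for libraries 1, 2 and 3 in that order. Trimmed mean of M-values (TMM) factors, which correct library size for such differences, were 0.81 to 0.92 in Eff+ and 1.10 to 1.19 in Eff-. Levels are given as CPM, the counts of a gene scaled to a common library size after TMM correction, and differences as log2 fold changes of Eff+ over Eff-, positive where Eff+ was higher, with their standard error (SE). The first principal component, 38.4% of the variance, separated the groups, and the second, 23.9%, separated the libraries numbered 1 from the other 4. The libraries numbered 2 stood apart in Lyz2, which encodes lysozyme M and whose locus carries the Cre, at 4.97, 3417 and 8.90 CPM in Eff+ and 3.93, 6567 and 3.67 CPM in Eff-. Libraries of 1 labelled genotype thus differed widely in this gene, and the labels give no further genotype by library. No gene passed the edgeR test without Eff+ library 2 (smallest adjusted p = 0.058, with 3260 genes at an unadjusted p under 0.05) or without both libraries numbered 2 (0.20, with 2212), which applies to every gene described below as having risen or fallen. Each such gene had the same sign of difference without both of those libraries. That was nearly fixed in advance, because the Eff+ and Eff- libraries did not overlap in CPM for any called gene.

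The wound Eff+ libraries differed from the Eff- libraries in many genes, with larger and more frequent differences in the upward direction. The edgeR quasi-likelihood test with Benjamini-Hochberg adjustment called 1666 of 14908 tested genes at an adjusted p under 0.05, which is 11.2%, with 1101 higher in Eff+ (7.39%) and 565 lower (3.79%). The Eff+ and Eff- libraries did not overlap in CPM for 36.8% of tested genes, 18.7% with all Eff+ libraries above and 18.1% with all below. The median rise among called genes was 2.67-fold, and 285 genes rose at least 4-fold. The median fall was 1.88-fold, and 11 genes fell at least 4-fold. Genes called higher held 34.3 to 37.9% of the counts in Eff+ libraries and 15.6 to 19.4% in Eff- libraries, while genes called lower held 2.69 to 3.61% and 7.56 to 8.77%. Abundant genes were called more often. Of the 2982 genes of highest mean CPM 18.8% were called higher and 7.24% lower, against 1.24% and 0.235% of the 2982 of lowest mean CPM. Scaling by library totals only moved the median log2 fold change of all genes from -0.03 to -0.42, and the split of calls from 1101 higher and 565 lower to 714 higher and 2654 lower. All 1666 called genes kept their sign under that scaling. Genes were grouped into 77 lists of pathways and cell types, in which 210 of 1517 distinct tested genes were called higher and 117 lower. The counts given below for each list are to be read beside the 7.39% called higher and 3.79% called lower over all tested genes. Several lists lie near or below these shares. With library totals only, 16 of the 77 list medians changed sign, and none did relative to the shifted median of all genes.

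**Figure D1:**
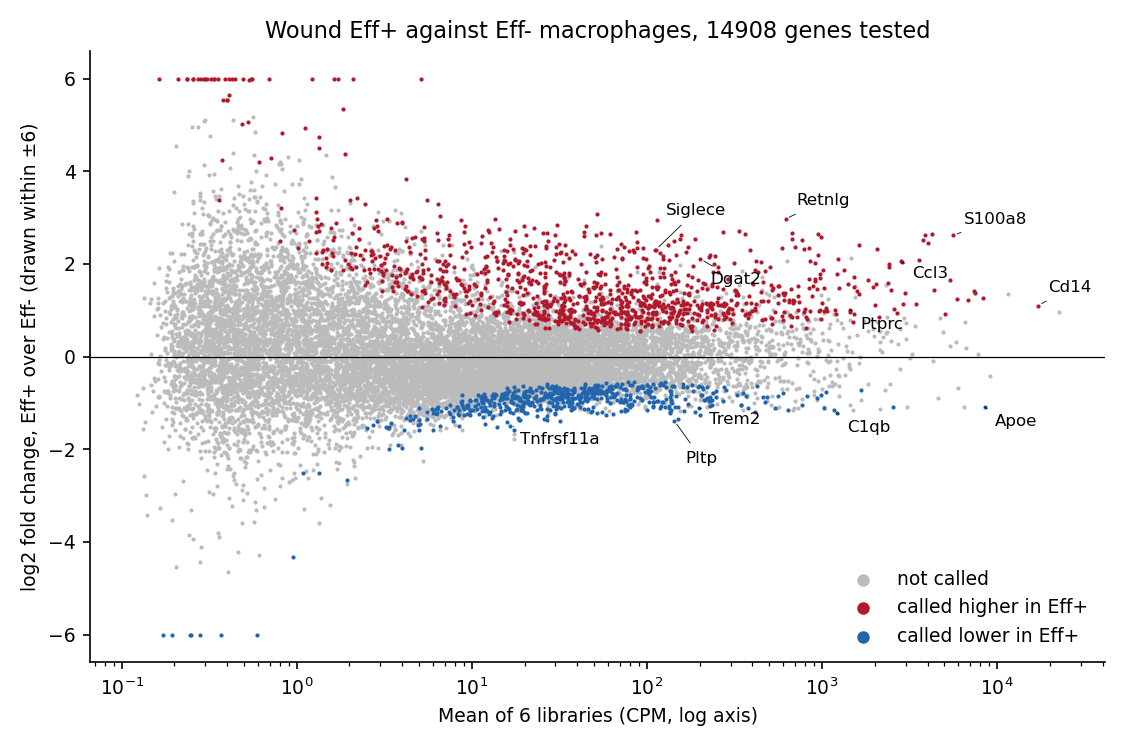
Each point is 1 of the 14908 tested genes, with its mean level over the 6 wound libraries in CPM on a log axis and its log2 fold change of Eff+ over Eff-, drawn within ±6. Red points are the 1101 genes called higher and blue points the 565 called lower in Eff+, and 285 red points and 11 blue points lie at a 4-fold difference or more.

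The labelled cell type was checked against marker genes of macrophages and of other cells a wound sort could hold. General macrophage markers were present in every library. Adgre1, which encodes F4/80, was at 490, 357 and 350 CPM in Eff+ and 776, 772 and 610 CPM in Eff-, and fell in Eff+ (-0.85, SE 0.20). Cd68, a lysosomal glycoprotein, was at 1048, 1025 and 1128 CPM in Eff+ and 1399, 1453 and 1455 CPM in Eff-, and Csf1r, the receptor for the growth factor that sustains macrophages, was at 469, 659 and 571 CPM in Eff+ and 865, 999 and 850 CPM in Eff-; both sets lay lower in Eff+ without overlap but did not pass (adjusted p = 0.12 and 0.059, edgeR). Ptprc, the pan-leukocyte protein CD45, rose (1.01, SE 0.20). Of 18 tested macrophage markers 7 fell and 1 rose, with a median log2 fold change of -0.87, and 15 of the 18 had negative values. The list as a sum held 2.89, 2.74 and 2.52% of counts in Eff+ and 2.64, 2.65 and 2.49% in Eff-, but most of that sum in Eff+ was Cd14, the member that rose. The other 17 genes together held 0.700, 0.607 and 0.761% in Eff+ against 1.37, 1.43 and 1.25% in Eff-, which do not overlap.

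Neutrophil markers moved the other way. Of 22 tested markers of mature neutrophils 19 rose and none fell, with a median log2 fold change of 2.19 (1.93 without both libraries numbered 2), and their summed share of counts was 6.21, 6.00 and 5.33% in Eff+ against 1.91, 1.26 and 2.05% in Eff-. Of 15 tested granule protein genes 7 rose and none fell (median 1.85), with 0.374 to 0.486% of counts in Eff+ and 0.146 to 0.204% in Eff-. S100a8, an alarmin subunit abundant in neutrophils and monocytes, was at 9044, 10743 and 9186 CPM in Eff+ and 1610, 1095 and 2017 CPM in Eff-. Ly6g, a surface protein used to identify mouse neutrophils, was at 38.5, 32.8 and 20.9 CPM in Eff+ and 5.80, 2.97 and 5.28 CPM in Eff-. Every Eff+ library lay above every Eff- library for both genes, by log2 fold changes of 2.62 (SE 0.27) and 2.71 (SE 0.34). The azurophil granule genes Elane, Mpo and Ctsg were too low to be tested. These are bulk libraries, in which more cells of a type, more RNA per such cell and RNA carried in with engulfed cells cannot be told apart. When the genes of other cell types were left out before scaling, 1633 genes were called, 1076 higher and 557 lower, but the part of neutrophil RNA in the remaining differences was not tested.

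The other marker lists each held at most 1.40% of counts, a value reached by monocyte markers. Of 18 monocyte markers 4 rose and 2 fell (median 0.07), and of 17 dendritic cell markers 1 rose and 2 fell. Of 19 fibroblast and matrix markers 2 rose, the smooth muscle actin gene Acta2 (2.27, SE 0.26) and Col6a3 (2.07, SE 0.50), and the list held 0.0961, 0.154 and 0.296% of counts in Eff+ against 0.0373, 0.187 and 0.0912% in Eff-, ranges that overlap. Of 16 listed keratinocyte markers 10 had no count in any Eff- library, and 6 were tested, of which 3 were called higher. Krt14 and Krt5 among them had no count in Eff- and entered the test only through Eff+. Perp, the other, was at 3.26, 2.23 and 2.22 CPM in Eff+ and 0.20, 0 and 0.14 CPM in Eff-, and also depended on Eff+. The count of 3 thus carries little weight. Of 7 skeletal muscle and adipocyte markers 2 rose, the myosin light chain genes Myl1 (2.97, SE 0.76) and Mylpf (1.89, SE 0.31). Myl1 was at 3.14, 3.56 and 4.14 CPM in Eff+ and 0.08, 0.84 and 0.46 CPM in Eff-. Its entry into the test depended on its Eff+ level. Of 12 mast cell, basophil and eosinophil markers 3 rose: Siglecf (2.48, SE 0.50), Ccr3 (1.90, SE 0.29) and Prg2, which is described with the undetected genes at the end. Prg2 and Siglech, the dendritic cell marker that rose, also had no count in Eff- and entered the test only through Eff+. No T, natural killer, B, endothelial or erythroid marker passed among 8, 3, 11 and 8 tested in those lists (T and natural killer markers form 1 list), and Cd3e had no count in any library.

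**Figure D2:**
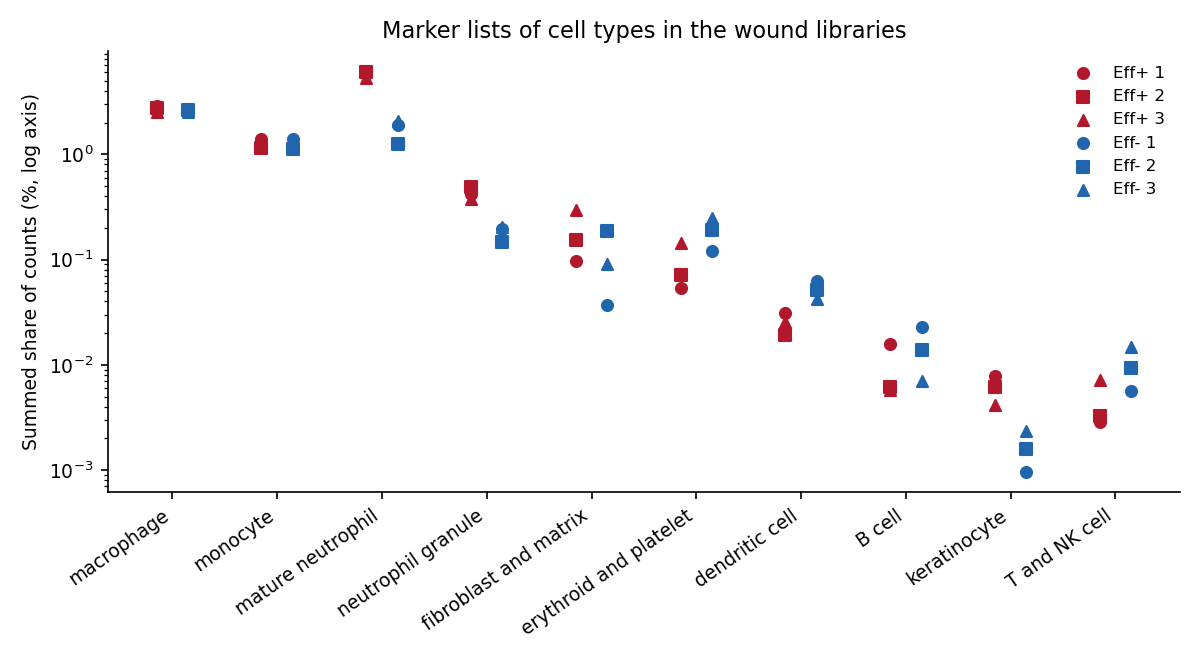
Each point is 1 wound library, with the summed share of its counts held by a marker list of 1 cell type on a log axis (red, Eff+; blue, Eff-; circle, square and triangle for libraries 1, 2 and 3). Mature neutrophil markers lie at 5.33 to 6.21% in Eff+ and 1.26 to 2.05% in Eff-, while macrophage markers lie at 2.49 to 2.89% in all 6 libraries with Cd14, and without it, as given in the text, at 0.607 to 0.761% in Eff+ and 1.25 to 1.43% in Eff-.

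The genes of largest rise included several transcripts typical of neutrophils. Among called genes with at least 10 CPM on average, Ngp, a secondary granule protein, rose most (3.07, SE 0.49), followed by Sycp2 (2.98, SE 0.51), a synaptonemal complex protein best known from meiosis, and Retnlg (2.97, SE 0.38), a resistin-like secreted protein of neutrophils. Retnlg was at 1224, 1427 and 638 CPM in Eff+ and 194, 97.5 and 129 CPM in Eff-. The Mas-related receptor genes Mrgpra2b (2.96, SE 0.35) and Mrgpra2a (2.85, SE 0.38) rose together; they are close paralogs on chromosome 7, between which reads may be split. Steap4, a metalloreductase, was at 635, 682 and 428 CPM in Eff+ and 105, 61.9 and 98.7 CPM in Eff-, with the groups far apart. Others of the same size were Ankrd22 (2.82), Olfm4 (2.78), Rasip1 (2.73) and Nlrp12 (2.69). Falls were smaller. Among the largest were those of Slc12a7 (-1.52, SE 0.24), a potassium-chloride cotransporter, and Tnfrsf11a (-1.49, SE 0.33), which encodes the receptor RANK. Slc12a7 was at 6.56, 9.13 and 5.82 CPM in Eff+ and 21, 18.6 and 22.1 CPM in Eff-, with the groups well apart. Stxbp6 (-1.46), Npl, a sialic acid lyase (-1.39), and the potassium channel gene Kcnk13 (-1.34) fell by similar amounts.

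Among called genes of highest abundance per length, the rises were in secreted and innate immune genes. Cd14, the lipopolysaccharide co-receptor that also binds apoptotic cells, was at 24667, 26181 and 19077 CPM in Eff+ and 11082, 10225 and 11363 CPM in Eff- and rose (1.10, SE 0.21). Slpi, a secreted inhibitor of neutrophil elastase, was at 4783, 7435 and 5258 CPM in Eff+ and 1183, 1086 and 1849 CPM in Eff-, and Srgn, the granule proteoglycan serglycin, at 8105, 9392 and 6932 CPM in Eff+ and 2630, 1959 and 3157 CPM in Eff-. Both groups of values were separate, with log2 fold changes of 2.09 (SE 0.29) and 1.66 (SE 0.24). The abundant genes that fell were Apoe and C1qb, described below, and Gpx1, Lgals1, Anxa5, Selenop, Emp3, Ccl9, Lgmn and C1qa. Selenop, a selenium carrier protein of tissue macrophages, was at 924, 518 and 509 CPM in Eff+ and 1643, 1480 and 1085 CPM in Eff- (-1.11, SE 0.29).

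**Figure D3:**
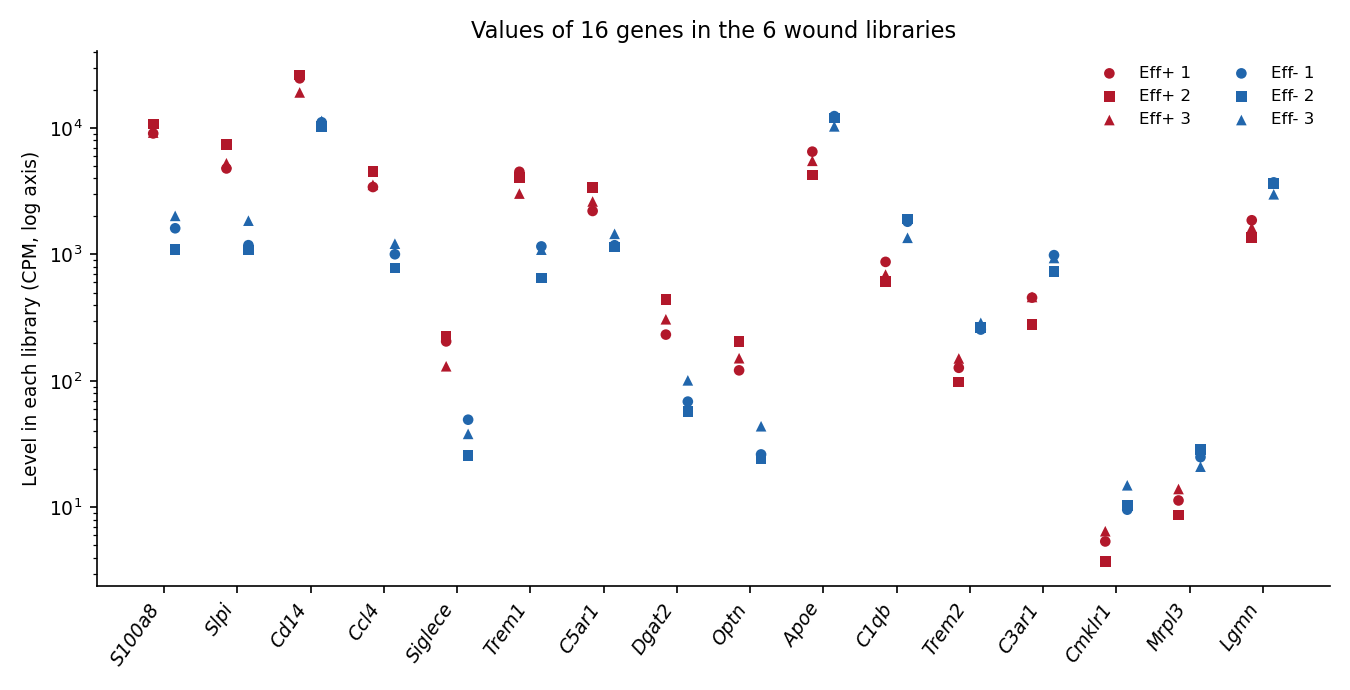
Levels of 16 genes in each wound library, in CPM on a log axis (red, Eff+; blue, Eff-; circle, square and triangle for libraries 1, 2 and 3). For each gene drawn the 3 Eff+ points and the 3 Eff- points do not overlap, with 9 genes higher and 7 lower in Eff+.

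Receptors that recognise and bind dying cells divided by family. Of 13 tested phosphatidylserine receptors and bridging proteins 5 fell and 1 rose (median -0.85), and of 17 scavenger receptors 6 fell and none rose (median -0.82). C1qa and C1qb among the former, and Cd163 and Mrc1 among the latter, are also macrophage markers counted above. Stab1 fell in both lists. These falls are thus partly the same as those of the macrophage markers. Gas6, the bridge between phosphatidylserine and the TAM kinases, was at 58.2, 41.8 and 48.6 CPM in Eff+ and 109, 109 and 73.7 CPM in Eff- (-0.97, SE 0.21). Mertk, the TAM kinase of macrophages, was at 15.6, 6.49 and 16.7 CPM in Eff+ and 23.9, 21 and 26.5 CPM in Eff-, lower without overlap, but did not pass (-0.88, SE 0.34, adjusted p = 0.13, edgeR). Msr1, scavenger receptor A, was at 318, 244 and 385 CPM in Eff+ and 561, 560 and 754 CPM in Eff- (-0.98, SE 0.23), and the lipoprotein receptor gene Lrp1 (-0.97, SE 0.26), the mannose receptor gene Mrc1 (-1.03, SE 0.23) and Cd163, the haemoglobin-haptoglobin receptor (-1.08, SE 0.22), fell with it. Cd36 (-1.01, SE 0.45, adjusted p = 0.18) overlapped between groups. Thbs1, thrombospondin 1, a bridging protein that platelets and macrophages release, was the member that rose (0.92, SE 0.22).

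Of the signalling receptors of the CD300, TREM, Siglec and LILR families more were called higher than lower. Of 14 tested CD300 and TREM genes with their adaptors 6 rose and 1 fell (median 0.94). Trem1, an amplifier of inflammatory signalling on neutrophils and monocytes, was at 4502, 4073 and 3027 CPM in Eff+ and 1157, 652 and 1090 CPM in Eff- (2.00, SE 0.28), and its neighbour Trem3 followed (1.90, SE 0.26). Trem2, a lipid-sensing receptor of tissue macrophages in the same gene cluster on chromosome 17, was at 127, 98.1 and 150 CPM in Eff+ and 255, 266 and 288 CPM in Eff-, and fell (-1.11, SE 0.19). The adaptors through which these receptors signal, Tyrobp (0.92, SE 0.22) and Hcst (1.09, SE 0.23), and the kinase Syk (1.06, SE 0.18), all rose, as did the phosphatidylserine-binding receptor gene Cd300lf (1.47, SE 0.28). Of 18 Siglecs and inhibitory paired receptors 6 rose and none fell: Siglecg (2.62), Siglecf (2.48), Siglece (2.31), Cd33 (2.02), Lilrb4a (1.57) and Lilr4b (1.43). Siglece, a sialic acid receptor with inhibitory motifs, was at 205, 224 and 131 CPM in Eff+ and 49.4, 25.8 and 38.1 CPM in Eff-. The median over the 18 was 0.33, and -0.07 with library totals only, so the list's direction rests on the scaling, whereas the 6 called members kept theirs. Lilrb4a and Lilr4b are near-identical neighbours whose reads may be split.

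Pattern recognition receptors were also called in both directions. The C-type lectin genes Clec4d (1.50, SE 0.25), Clec4e (1.38, SE 0.33) and Clec5a (1.32, SE 0.20), which signal through Fc receptor gamma chain or Tyrobp, rose, while Clec10a (-1.17, SE 0.19), a galactose lectin of resident and alternatively activated macrophages, and Cd302 (-0.62, SE 0.15) fell among 15 tested. Of 22 Toll-like receptors and adaptors 6 rose, among them Tlr4 (1.16, SE 0.29), Tlr6 (1.75, SE 0.23), Tlr13 (1.52, SE 0.24) and the adaptor Tirap (1.36, SE 0.24), and 1 fell, the adaptor Ticam2 (-1.01, SE 0.17). Of 8 Fc receptor genes 2 fell, the inhibitory receptor gene Fcgr2b (-1.04, SE 0.20) and Fcgrt, the neonatal Fc receptor (-1.25, SE 0.27). Of these rising receptors Trem1, Clec4d and Clec4e also stood in the mature neutrophil list, and the neutrophil share of counts given above was higher in the same libraries. Absence from that list does not mark a gene as free of neutrophil RNA. The part of such RNA in the other rises was not tested.

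Chemoattractant receptors were among the genes that separated the groups by type. Of 20 tested receptors for formyl peptides, complement fragments and lipid mediators 7 rose and 2 fell (median 0.73, and 0.38 without both libraries numbered 2). C5ar1, the main receptor for complement C5a, was at 2206, 3384 and 2620 CPM in Eff+ and 1182, 1147 and 1455 CPM in Eff- (1.12, SE 0.22), and C5ar2 rose by a similar amount (1.15, SE 0.24). C3ar1, the receptor for C3a, went the other way at 455, 278 and 461 CPM in Eff+ and 987, 735 and 937 CPM in Eff- (-1.15, SE 0.25). Cmklr1, the chemerin receptor, was at 5.38, 3.75 and 6.48 CPM in Eff+ and 9.60, 10.4 and 15 CPM in Eff- and fell (-1.16, SE 0.30). Fpr1 (2.06, SE 0.28) and Fpr2 (1.96, SE 0.21), which sense bacterial and mitochondrial formyl peptides, rose. So did Hcar2, a receptor for butyrate and ketone bodies, at 5772, 7903 and 6675 CPM in Eff+ and 1228, 741 and 1740 CPM in Eff- (2.46, SE 0.33). Of 20 CC chemokine genes and receptors 5 rose and 3 fell. Ccl3 was at 2568, 6628 and 4556 CPM in Eff+ and 726, 1096 and 1530 CPM in Eff- (2.04, SE 0.40), and Ccr1 (1.59, SE 0.22), a receptor for Ccl3, rose. Ccl9 (-0.83, SE 0.18) and Ccl24 (-1.36, SE 0.21), which recruits eosinophils, were among the falls. Of 20 CXC chemokine genes and receptors the receptors Cxcr1 (2.70, SE 0.62), Cxcr2 (2.67, SE 0.57) and Cxcr5 (2.35, SE 0.31) rose and Cxcl16 (-0.82, SE 0.17), which is also a scavenger receptor, fell. Cxcr2 is also in the mature neutrophil list, and the part of neutrophil RNA in the other receptors that rose was not tested. Cxcl2, the main neutrophil attractant of mouse macrophages, was at 9875, 22017 and 17905 CPM in Eff+ and 4525, 5388 and 9651 CPM in Eff- and did not pass (1.35, SE 0.39, adjusted p = 0.062, edgeR).

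Agonist and antagonist genes of the interleukin 1 family rose together. Of 13 tested interleukin 1 family genes and receptors 6 rose and none fell, with a median log2 fold change of 1.34 (1.56 without both libraries numbered 2). Il1b was at 8402, 8593 and 7922 CPM in Eff+ and 3488, 2799 and 4212 CPM in Eff- (1.25, SE 0.21). The receptor antagonist gene Il1rn was at 3430, 5326 and 4058 CPM in Eff+ and 1418, 1758 and 1807 CPM in Eff- (1.36, SE 0.23), and the decoy receptor gene Il1r2 at 9140, 5620 and 4543 CPM in Eff+ and 1718, 559 and 1073 CPM in Eff- (2.53, SE 0.45). Il1r2 is also in the mature neutrophil list, of which 19 of 22 members rose in the same libraries. Il1f9, which encodes interleukin 36 gamma (2.42, SE 0.33), and the receptor subunit genes Il1rap (2.31, SE 0.30) and Il18rap (2.12, SE 0.30) rose as well. Of 26 genes of the TNF, interleukin 6, 10 and 12 families 6 rose and 1 fell. Csf1, the macrophage growth factor, was at 404, 1288 and 1250 CPM in Eff+ and 118, 131 and 330 CPM in Eff- and rose (2.34, SE 0.55), with Eff+ library 1 well below the other 2. Il10, the main anti-inflammatory cytokine of macrophages, was at 77.9, 77.6 and 70.2 CPM in Eff+ and 134, 229 and 125 CPM in Eff- and fell (-1.11, SE 0.25). Tnf was at 684, 3693 and 2452 CPM in Eff+ and 327, 794 and 1242 CPM in Eff-, overlapping between groups (1.53, SE 0.64, adjusted p = 0.16). Of 29 interferon-stimulated genes 2 rose, Irf1 (0.84, SE 0.21) and Gbp5 (1.56, SE 0.35), which is 6.90% called against 11.2% of all tested genes. That list separated libraries by number rather than by sort: its summed share of counts was 1.04% in Eff+ library 1 and 0.69% in Eff- library 1, against 0.259 to 0.321% for libraries 2 and 3 of either sort, and its median of 0.67 ranged from -0.08 to 1.20 with single libraries left out.

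Lipid mediator and nucleotide pathways also divided within themselves. Of 19 eicosanoid enzymes 3 rose and 3 fell. Alox5, which starts leukotriene synthesis, was at 169, 157 and 111 CPM in Eff+ and 60.0, 29.9 and 52.7 CPM in Eff- (1.62, SE 0.29), and Alox15, of the lipoxin and resolvin pathways, rose from a low level (3.29, SE 0.75) with 2.08, 7.71 and 3.49 CPM in Eff+ and 0.72, 0.49 and 0.14 CPM in Eff-. The entry of Alox15 into the test depended on its Eff+ level. The thromboxane synthase gene Tbxas1 was at 67.3, 52.2 and 65.7 CPM in Eff+ and 143, 117 and 151 CPM in Eff- (-1.15, SE 0.18), and the prostaglandin D synthase gene Hpgds (-1.09, SE 0.28) and the carbonyl reductase gene Cbr2 (-1.36, SE 0.25) fell with it. Ptgs2, cyclooxygenase 2, overlapped between groups (0.72, SE 0.41, adjusted p = 0.28, edgeR). Of 19 purinergic receptors and ectonucleotidases 3 rose and 3 fell. Adora1, counted among the rises, had no count in any Eff- library and entered the test only through Eff+. Entpd1, the ectonucleotidase CD39 that removes extracellular ATP, was at 1690, 1623 and 1214 CPM in Eff+ and 519, 349 and 456 CPM in Eff- (1.77, SE 0.23). The ADP receptor gene P2ry13 rose (1.52, SE 0.29), while P2ry6, the UDP receptor linked to phagocytosis in microglia (-1.03, SE 0.17), and P2rx4 (-0.71, SE 0.15) fell.

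Genes of intracellular signalling were more often called higher than lower. Of 24 tested NF-kB subunits and feedback inhibitors 5 rose and 1 fell (median 0.74, and 0.53 without both libraries numbered 2). Nfkbia, the inhibitor that NF-kB itself induces, was at 7188, 15477 and 12613 CPM in Eff+ and 3769, 4440 and 6406 CPM in Eff- (1.27, SE 0.33), Nfkbid (1.13, SE 0.16) and Birc3 (1.21, SE 0.19) rose, and Tnip3 (-1.01, SE 0.16) fell. Of 15 AP-1 genes 5 rose and none fell, including Fosl2 (1.02, SE 0.20) and Maff (1.18, SE 0.28), while Fos itself was at 1952, 1312 and 1334 CPM in Eff+ and 1659, 1329 and 1304 CPM in Eff-, without a difference beyond its spread (0.10, SE 0.22). Of 23 STAT and SOCS genes 5 rose, among them Stat3 (0.70, SE 0.16), Jak1 (0.79, SE 0.16) and the kinase Pim1 (1.33, SE 0.18). Of 16 dual-specificity phosphatases and related feedback genes 4 rose, led by Dusp16 (1.58, SE 0.24), and 2 fell, including Dusp3 (-1.09, SE 0.21). Of 25 BCL2 family genes and p53 targets 3 survival genes rose, Bcl2l1 (1.66, SE 0.21), Mcl1 (0.85, SE 0.17) and Birc2 (0.68, SE 0.15), and none fell. With 12% of that list called, against 11.2% of all tested genes, it did not stand out.

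The integrated stress response, in which ATF4 induces amino acid synthesis and transport genes, had 9 of 26 tested genes higher and 1 lower. Asns, asparagine synthetase, was at 37.9, 51.9 and 31.6 CPM in Eff+ and 6.46, 13 and 15.2 CPM in Eff- (1.81, SE 0.34). Phgdh, which starts serine synthesis, was at 2.53, 2.40 and 2.50 CPM in Eff+ and 0.68, 0.53 and 0.83 CPM in Eff- (1.87, SE 0.47), and outside the list Slc7a11, the cystine importer induced by ATF4 and NRF2, was at 1526, 2268 and 1849 CPM in Eff+ and 353, 426 and 861 CPM in Eff- (1.78, SE 0.36). Chac1, which degrades glutathione, was low in all libraries, at 7.21, 8.70 and 9.11 CPM in Eff+ and 1.51, 1.14 and 2.73 CPM in Eff-, yet separate between groups (2.22, SE 0.39). The list's median was 0.42, and 0.03 with library totals only. Atf4 itself did not pass (0.24, SE 0.17, adjusted p = 0.38), and Sdf2l1 (-1.01, SE 0.17), a chaperone cofactor of the endoplasmic reticulum, fell.

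Promoters of genes that moved in these pathways were read from RefSeq windows around transcription starts, for 10411 tested genes of which 1281 were called. Stretches of 100 bases are shown for 5 genes whose levels are given here, because they hold the letters of the pathway's best known factor. The coordinates are those of GRCm38.p6, an earlier build than the GRCm39 of the counts. Capitals mark a match on either strand to TGATGNAA, the composite C/EBP-ATF element bound by ATF4 (Chac1, Asns and Slc7a11), to the kappa B site of NF-kB (Nfkbia), or to CACGTG, the E-box core of the CLEAR element bound by TFEB (Glb1).
Chac1, chr2:119351003-119351102, plus strand: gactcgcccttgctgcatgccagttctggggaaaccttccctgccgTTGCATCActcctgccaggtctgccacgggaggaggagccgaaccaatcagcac
Asns, chr6:7693210-7693309, minus strand: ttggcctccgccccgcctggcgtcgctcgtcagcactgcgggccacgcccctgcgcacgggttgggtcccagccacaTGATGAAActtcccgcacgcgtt
Slc7a11, chr3:50443617-50443716, minus strand: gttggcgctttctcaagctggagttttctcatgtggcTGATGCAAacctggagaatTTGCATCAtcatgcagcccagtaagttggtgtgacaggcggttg
Nfkbia, chr12:55492648-55492747, minus strand: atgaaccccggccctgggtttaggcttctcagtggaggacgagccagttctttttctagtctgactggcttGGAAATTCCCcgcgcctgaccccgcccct
Glb1, chr9:114400978-114401077, plus strand: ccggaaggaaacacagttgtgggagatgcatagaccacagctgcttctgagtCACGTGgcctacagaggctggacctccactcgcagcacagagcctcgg
The C/EBP-ATF letters occurred in 2.47% of the windows of tested genes, in 2.92% of those of genes called higher and in 3.51% of those called lower. In the stress response list 7 of 26 windows held them, those of Asns, Chac1, Herpud1, Atf3, Nupr1, Trib3 and Vldlr, of which the first 3 genes rose. The NF-kB letters occurred in 1.39% of windows of tested genes and in 2.37% and 2.11% of those called higher and lower. The E-box occurred in 9.72% of windows, in 8.57% of those called higher and in 12.1% of those called lower. GAGGAAGT, the letters of the myeloid factor PU.1, occurred in 3.5%, 5.74% and 3.51% of the 3 sets. A match is a description of the letters in these windows.

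Several lysosomal enzyme genes fell, whereas autophagy adaptors and several Rab genes rose. Of 37 tested lysosomal hydrolases and membrane proteins 8 fell and 1 rose (median -0.51), and of 15 cathepsins and legumain 2 fell. Lgmn, the asparaginyl endopeptidase legumain, was at 1862, 1363 and 1628 CPM in Eff+ and 3712, 3640 and 2987 CPM in Eff- (-1.09, SE 0.20). Glb1, beta-galactosidase, was at 33.1, 20.1 and 31.5 CPM in Eff+ and 54, 48.6 and 53.4 CPM in Eff- (-0.88, SE 0.21). Gla, alpha-galactosidase A, was the exception at 510, 516 and 473 CPM in Eff+ and 257, 252 and 278 CPM in Eff- (0.93, SE 0.15). Ctsd, the aspartic protease cathepsin D, differed by less than its spread (-0.02, SE 0.22). Of 18 proton pump subunits 1 fell, Atp6v1h (-0.55, SE 0.14). Of 18 MiT/TFE factors and lysosome signalling genes 2 rose and 1 fell (median -0.10). Tfeb, the factor that drives lysosomal genes, was at 16.9, 26.8 and 24.6 CPM in Eff+ and 8.50, 9.57 and 7.87 CPM in Eff- (1.40, SE 0.23), and Rragd, a Rag GTPase, rose as well (1.88, SE 0.38). Tfec, a factor of the same family, fell (-1.12, SE 0.27).

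Of 26 autophagy genes 5 rose and none fell (median 0.52). Optn, the cargo receptor optineurin, was at 121, 204 and 151 CPM in Eff+ and 26.2, 24.2 and 43.8 CPM in Eff- (2.34, SE 0.30), and the receptor gene Tax1bp1 (1.15, SE 0.19) and the ubiquitin-like Map1lc3b (0.96, SE 0.21) and Gabarap (0.66, SE 0.16) rose. Of 36 Rab and Arf GTPases 7 rose and 1 fell. Rab20, which acts in phagosome maturation in macrophages, was at 642, 816 and 593 CPM in Eff+ and 296, 293 and 305 CPM in Eff- (1.20, SE 0.18), and Rab9 (1.17, SE 0.22), Rab32 (1.05, SE 0.24) and Rab8b (0.99, SE 0.19) also rose, while Rab7b (-0.83, SE 0.22) fell. Of 26 engulfment and actin genes the small GTPase genes Rhog (1.16, SE 0.16) and Rac2 (0.96, SE 0.24) and cytoplasmic actin Actg1 (0.87, SE 0.23) rose and Elmo2 (-0.82, SE 0.20), which works downstream of RhoG, fell.

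Some lipid droplet genes rose and some genes of cholesterol efflux fell. Of 23 tested triglyceride and lipid droplet genes 5 rose and none fell. Both acyltransferases that complete triglyceride synthesis rose: Dgat1 was at 488, 344 and 321 CPM in Eff+ and 133, 67.1 and 88.2 CPM in Eff- (2.00, SE 0.29) and Dgat2 at 232, 440 and 307 CPM in Eff+ and 68.6, 57.6 and 101 CPM in Eff- (2.11, SE 0.30). Gpat3, of the first step of that pathway (1.38, SE 0.28), G0s2, the inhibitor of the lipase ATGL (2.64, SE 0.49), and Pnpla2, which encodes ATGL itself (0.88, SE 0.16), rose as well. The median of the whole list was 0.20, and -0.19 with library totals only. Of 17 targets of the liver X receptors and cholesterol efflux genes 3 fell and none rose. Apoe, the lipid carrier through which macrophages export cholesterol, was at 6495, 4244 and 5496 CPM in Eff+ and 12399, 11995 and 10287 CPM in Eff- (-1.09, SE 0.23), and Pltp, a phospholipid transfer protein, at 80.3, 66.8 and 90.8 CPM in Eff+ and 218, 205 and 200 CPM in Eff- (-1.39, SE 0.17). Nr1h3, which encodes liver X receptor alpha, fell (-1.15, SE 0.22), and the exporter gene Abca1 did not differ beyond its spread (-0.33, SE 0.30). Of 24 sterol synthesis and uptake genes 1 rose, Sc5d (1.72, SE 0.19), and 1 fell, which is 8.33% called against 11.2% of all tested genes. G0s2 is also in the mature neutrophil list.

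Some genes of glycolysis and its transporters rose, and genes of mitochondria and of translation had mostly negative values. Slc2a3, the glucose transporter GLUT3, was at 1777, 1643 and 1678 CPM in Eff+ and 335, 132 and 383 CPM in Eff- (2.59, SE 0.38), and Slc2a6 (1.68, SE 0.25), the lactate exporter gene Slc16a3 (1.46, SE 0.34) and Pfkfb3 (1.36, SE 0.33), which makes the activator of phosphofructokinase, rose. They were the called genes among 23 of glycolysis and its transporters, none of which fell (median 0.60, and 0.35 without both libraries numbered 2). Of 47 nuclear-encoded respiratory chain genes 5 fell and none rose, and 44 had negative values (median -0.40). Of 46 mitochondrial ribosomal protein genes 9 fell and none rose (median -0.62), and Mrpl3 was at 11.3, 8.70 and 14 CPM in Eff+ and 25, 28.8 and 21 CPM in Eff- (-1.14, SE 0.24). Of 49 cytosolic ribosomal protein genes 6 fell and none rose, and 48 had negative values (median -0.53). Rpl3 was at 185, 195 and 180 CPM in Eff+ and 322, 365 and 248 CPM in Eff- (-0.74, SE 0.18). Of 35 proteasome subunit genes all 35 had negative values and 6 fell (median -0.45), and of 34 ribosome biogenesis genes 4 fell (median -0.51, and -0.26 without both libraries numbered 2). These are sets of small, even differences that mostly did not pass gene by gene, and their medians were more negative by about the shift of all genes when only library totals were used.

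Redox, iron and amino acid genes gave further named differences. Of 28 NRF2 and glutathione genes 5 rose and 2 fell. Osgin1 (2.10, SE 0.28), the glutathione reductase gene Gsr (1.83, SE 0.28) and Nfe2l2, which encodes NRF2 (1.02, SE 0.17), rose, while the peroxide-removing enzymes Gpx1 (-0.72, SE 0.18) and Cat (-0.72, SE 0.18) fell. Of 22 iron and haem genes 3 rose and 3 fell (median -0.12). Slc40a1, the iron exporter ferroportin, was at 228, 144 and 113 CPM in Eff+ and 60.4, 24.6 and 52 CPM in Eff- (1.83, SE 0.38), and the biliverdin reductase gene Blvra fell (-0.93, SE 0.20). Of 18 arginine and polyamine genes 4 rose and 3 fell (median -0.46). Arg2, the mitochondrial arginase, was at 787, 775 and 715 CPM in Eff+ and 267, 200 and 318 CPM in Eff- (1.54, SE 0.21), and the spermine oxidase gene Smox rose (1.67, SE 0.21). The creatine kinase gene Ckb (-1.22, SE 0.31) and Paox, another polyamine oxidase (-1.25, SE 0.32), were among the falls. Arg1, the cytosolic arginase of alternatively activated macrophages, was at 829, 986 and 2201 CPM in Eff+ and 2126, 2129 and 4607 CPM in Eff-, with Eff+ library 3 above 2 of the Eff- libraries, and did not pass (-1.14, SE 0.45, adjusted p = 0.14, edgeR).

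Transcription factors of the myeloid lineage moved in both directions. Of 38 tested 6 rose and 8 fell. Cebpb, of inflammatory macrophages and emergency granulopoiesis, was at 86.2, 70.2 and 61.5 CPM in Eff+ and 35.5, 27.9 and 25.4 CPM in Eff- (1.29, SE 0.20), and Cebpe, required for neutrophil granule genes, at 11.9, 13.2 and 7.41 CPM in Eff+ and 5.20, 4.03 and 2.98 CPM in Eff- (1.41, SE 0.33). Id1 (2.19, SE 0.34), Ets2 (1.30, SE 0.18), Runx2 (1.69, SE 0.36) and Klf2 (1.43, SE 0.30) rose as well. Maf (-1.15, SE 0.25), Irf8 (-0.89, SE 0.19), Cebpa (-0.95, SE 0.25) and Klf4 (-0.93, SE 0.16) were among the falls. Of 36 chromatin regulators 8 rose, among them the histone demethylase Kdm5b (1.60, SE 0.21), Hdac4 (1.38, SE 0.18) and the remodeller Chd7 (1.27, SE 0.23), and 1 fell, Smarca4 (-0.90, SE 0.16). Of 32 splicing factors 7 rose and none fell, including Tra2a (1.17, SE 0.19) and Srsf5 (0.90, SE 0.19). Of 31 cell cycle genes 3 rose, Ccnd2 (1.29, SE 0.33) and the inhibitors Cdkn1b (1.20, SE 0.17) and Cdkn2d (1.27, SE 0.30). That is 9.68% called, against 11.2% of all tested genes. The proliferation marker Mki67 did not differ beyond its spread (-0.20, SE 0.21).

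Clotting and costimulatory genes were called in both directions, while few genes of MHC class I and class II presentation were called. Of 22 coagulation and fibrinolysis genes 4 rose and 1 fell. F3, tissue factor, which starts coagulation, was at 143, 204 and 230 CPM in Eff+ and 34.6, 34.6 and 95.9 CPM in Eff- (1.81, SE 0.42), and F5, coagulation factor V, at 80.5, 63.9 and 64.9 CPM in Eff+ and 25.2, 14.2 and 19.4 CPM in Eff- (1.83, SE 0.24). Plaur, the urokinase receptor, rose (0.95, SE 0.20), and F13a1, the transglutaminase that cross-links fibrin, was at 681, 614 and 863 CPM in Eff+ and 1442, 1447 and 1924 CPM in Eff- and fell (-1.16, SE 0.22). Of 20 metalloproteinases and inhibitors Mmp9 (1.85, SE 0.25) and Mmp25 (1.87, SE 0.22), both made by neutrophils, rose and Adam10 (-0.63, SE 0.16) fell. Of 23 growth factors of wound repair Grn, progranulin, fell (-0.90, SE 0.18), and Vegfa (-0.13, SE 0.19), Igf1 (-0.69, SE 0.21) and Tgfb1 (0.13, SE 0.23) did not pass. That list had 4.35% called, below the 11.2% of all tested genes. Of 25 alternative activation genes 8 fell and 3 rose (median -0.81), with Folr2 (-1.20, SE 0.31) among the falls. The complement genes C1qa (-1.19, SE 0.19), C1qb (-1.22, SE 0.22) and C4b (-1.04, SE 0.25) were among the 5 of 20 complement genes that fell, and C5ar1 was the 1 that rose. C1qa and C1qb are also counted with the macrophage markers. Of 17 costimulatory and checkpoint genes 5 rose, among them Cd274, which encodes PD-L1, at 553, 1099 and 882 CPM in Eff+ and 220, 237 and 428 CPM in Eff- (1.52, SE 0.34), Icosl (1.82, SE 0.40) and Cd80 (0.99, SE 0.21), and Slamf7 fell (-0.97, SE 0.18). MHC class II genes had the lowest median of the lists drawn, -1.07 over 16 genes, but only Ifi30 and Lgmn passed, both lower. Lgmn is also counted with the cathepsins, and no class II chain gene passed. Of 21 class I presentation genes 1 was called, H2-M3 (-0.87, SE 0.16). H2-Ab1 was at 2792, 2000 and 1107 CPM in Eff+ and 4427, 6162 and 1903 CPM in Eff-, overlapping between groups (-1.08, SE 0.47, adjusted p = 0.17, edgeR).

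**Figure D4:**
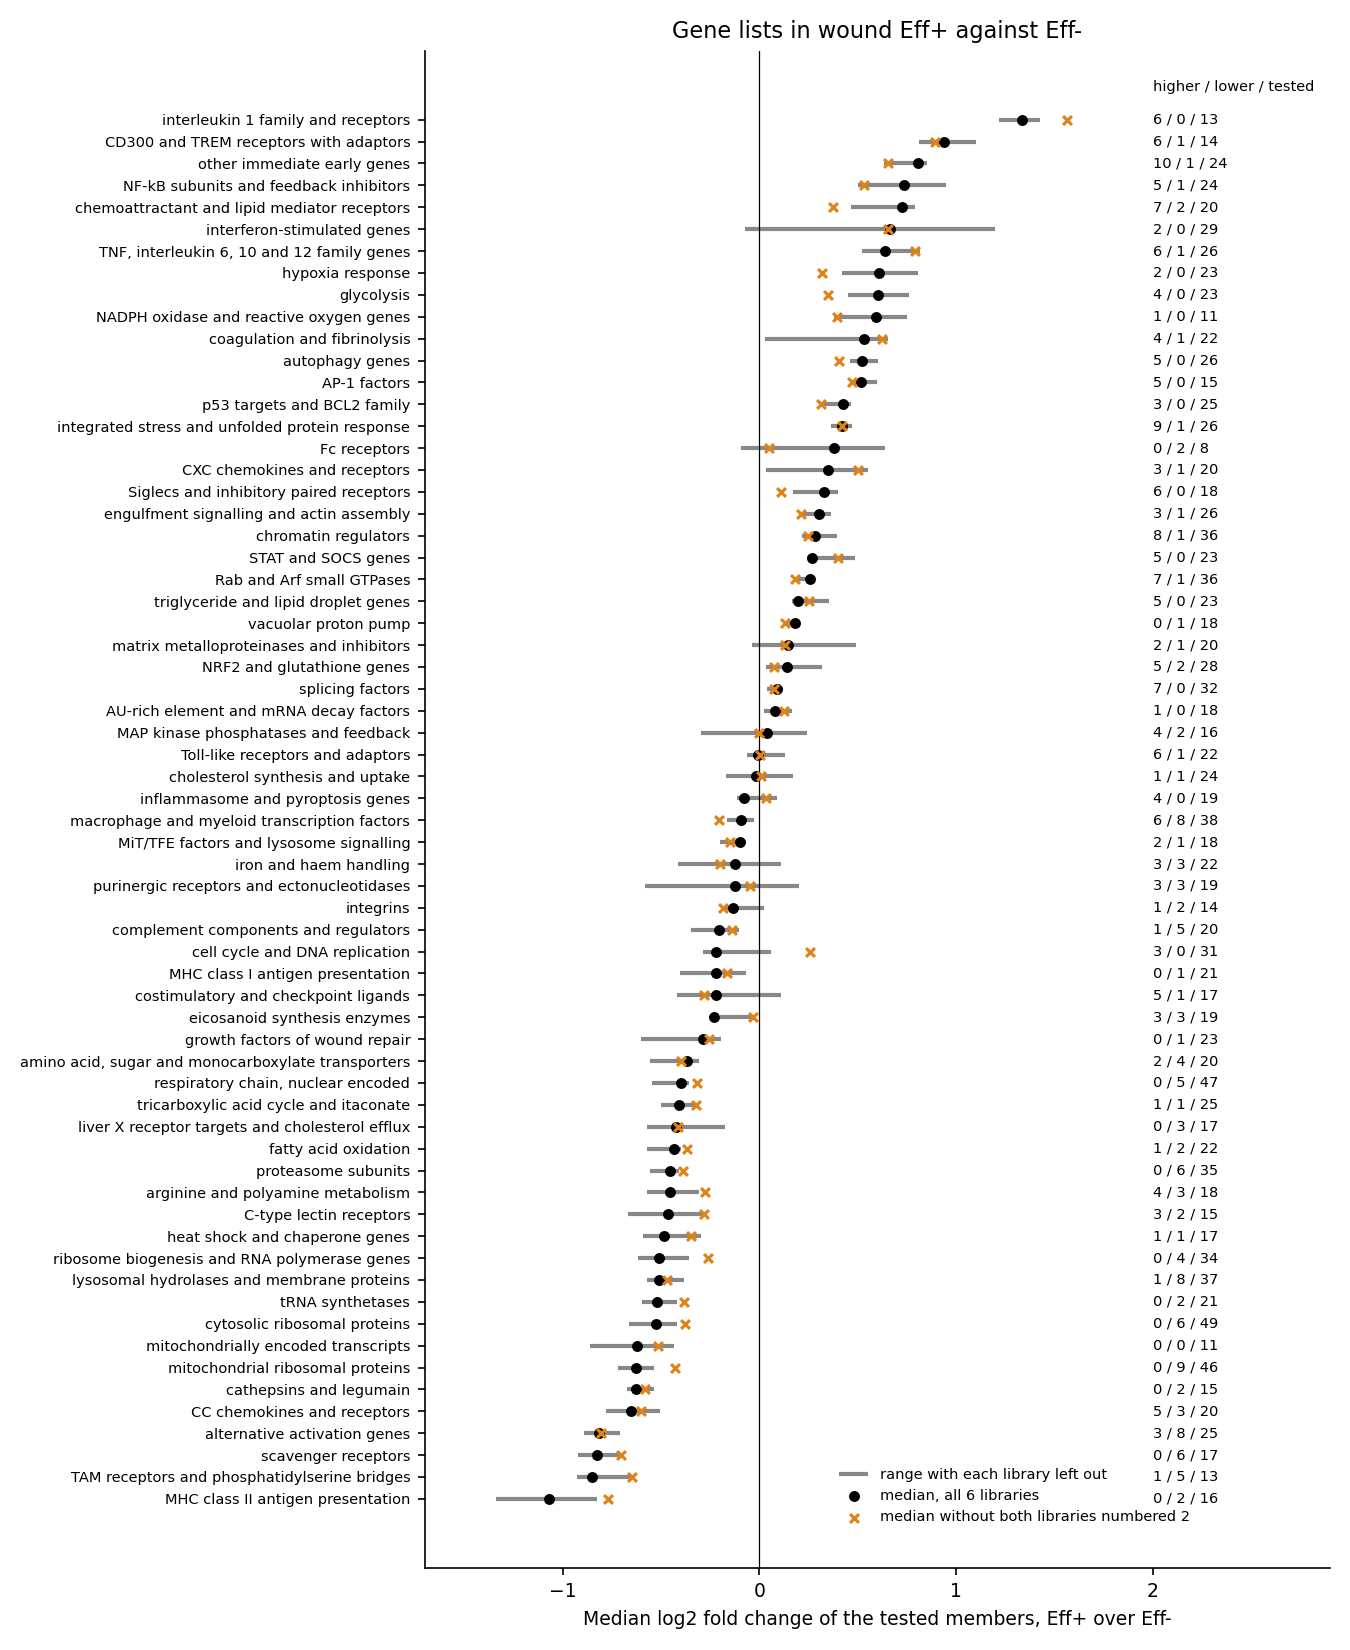
Each row is a gene list with at least 8 tested members, marker lists of cell types not drawn: the black point is the median log2 fold change of its members, the grey line its range with each library left out in turn, and the orange cross its value without both libraries numbered 2. Numbers at the right count members called higher, called lower and tested; of the lists drawn, interleukin 1 lies highest (1.34) and MHC class II lowest (-1.07), and the line of the interferon-stimulated list is among those that cross 0.

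Some transcripts were detected in 1 group only. In all, 33 genes had at least 10 counts in each Eff+ library and none in any Eff- library, and 6 had the reverse. Krt14, a keratin of basal epidermis, was counted 458, 791 and 162 times in Eff+ libraries 1, 2 and 3. Krt5, its partner, was counted 402, 140 and 26 times. Against a floor of 3 counts over the Eff- group, these were at least 501-fold and 206-fold higher. That floor covers counting error only and takes each count as independent, which was not tested. Zfp831, a zinc finger gene chosen after its values were seen, had 170, 136 and 167 counts in Eff+ and was at least 168-fold higher. Prg2, eosinophil major basic protein, had 102, 36 and 12 counts, and Siglech, of plasmacytoid dendritic cells, 74, 19 and 40. The leading gene of the reverse set with a name, Tmem8b (also chosen after its values were seen), was counted 20, 50 and 14 times in Eff- and was at least 25.5-fold lower in Eff+.

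Whether the wound difference departed from that in culture was tested as an interaction over all 10 libraries. The wound and culture comparisons share no library. No gene among 20270 passed in edgeR (0 calls, 0.0%, with a smallest adjusted p of 0.10 and 2222 genes at an unadjusted p under 0.05), and DESeq2 called 797. Il1b had a log2 fold change of 1.25 in the fit of the 6 wound libraries and -2.67 in a fit of the 4 culture libraries, and a difference of 3.94 in the joint fit, which is scaled over all 10 libraries (SE 0.55, adjusted p = 0.10). Trem1 had 2.00 and -1.72 in the separate fits (joint difference 3.74, SE 0.58), and Siglece 2.31 and -1.15 (joint difference 3.48, SE 0.59), both also at an adjusted p of 0.10. Il1b, Trem1 and Siglece thus lie at the smallest adjusted p among the 20270 genes. They are extremes of a test that no gene passed, not typical genes. C5ar1, in contrast, had 1.12 and 0.56, and a joint difference of 0.58 (SE 0.71). The culture comparison has 2 libraries a group, and leaving out culture Eff- library 2, which left that group with 1 library assumed to vary like the others, gave 2009 calls. With culture Eff+ library 1 or Eff- library 1 left out there were 7 and 4 calls.

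**Figure D5:**
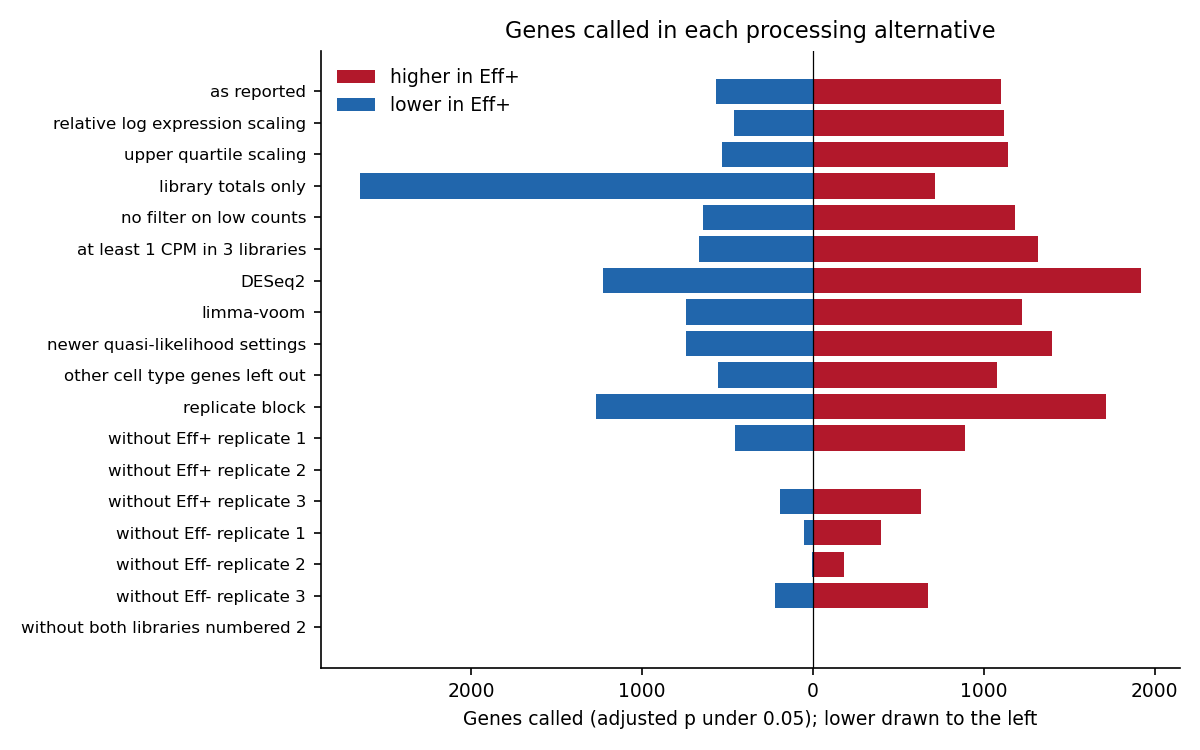
Bars give the number of genes called between wound Eff+ and Eff- under each processing alternative, at an adjusted p under 0.05, with genes higher in Eff+ to the right in red and lower to the left in blue. As reported there were 1101 and 565; the bars vanish without Eff+ library 2 and without both libraries numbered 2, and library totals only turns the larger share to the left (714 and 2654).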

How the data were processed

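Polyadenylated RNA was sequenced in 6 wound and 4 culture libraries, per the labels. The authors deposited raw read counts per gene, whole numbers with 1 column per library. Wound reads were counted with featureCounts 1.6.0 at default settings, without a strand option, against Ensembl release 106 on GRCm39, per the file headers. Reads of a gene and of an overlapping antisense gene therefore cannot be told apart. The submitters' processing notes name Trimmomatic 0.39; no source used here gives the aligner. Names matched 52081 of 55414 gene identifiers, which held 99.91% of wound counts. Another 4 columns of the culture table could not be assigned to a labelled sample and were left out.

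Counts of the 6 wound libraries were fitted with edgeR 4.0.16 in R 4.3.3 (filterByExpr, TMM scaling, quasi-likelihood test, no covariate), with Benjamini-Hochberg adjustment over all tested genes and a threshold of 0.05. The SE is |log2 fold change| / sqrt(F), with F the test statistic. Alternatives were other scalings and filters, DESeq2 1.42.0, voom in limma 3.58.1, a replicate block, each library left out, and newer quasi-likelihood settings, the last added after seeing the data. The edgeR fit of the wound libraries was first tested on simulated counts, in which rises and falls were balanced and the groups did not differ in composition. The other steps were not tested in that way.

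The 77 lists and the rule for named genes were chosen with earlier results of these data known. The rule named, in each direction, the 12 called genes that changed most among those with at least 10 CPM and no overlap (predicted and RIKEN models left out), the 10 called genes of highest abundance per length in each direction, up to 4 called genes per list and direction by p (in a list without any, up to 2 of smallest p), and 10 fixed genes. Genes named beyond it, chosen after their values were seen, are Abca1, Arg1, Asns, Atf3, Atf4, C4b, C5ar2, Cd274, Cd36, Cebpa, Cebpe, Csf1, Ctsd, Cxcl2, Egr1, Folr2, Fos, Gabarap, Glb1, Gpat3, H2-Ab1, Hcst, Herpud1, Igf1, Il1r2, Lilrb4a, Mki67, Msr1, Nupr1, Phgdh, Ptgs2, Rab32, Runx2, Tgfb1, Tlr4, Tmem8b, Tnf, Trib3, Vegfa, Vldlr and Zfp831. Some genes that the rule named are not reported here. Promoter windows are from RefSeq (GRCm38.p6).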

Additional observations from a re-analysis of the deposited data

How the results depend on the processing

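The number of called genes depended on the tool, the scaling and single libraries. No gene called both as reported and under an alternative had the opposite sign. With no overlap between the groups in any called gene, such a reversal was unlikely beforehand. DESeq2 called 3150 genes (1919 higher and 1231 lower in Eff+), of which 1634 were among the 1666. Scaling by library totals only called 3368 (714 higher, 2654 lower), of which 1270 were shared. Leaving out 1 wound library gave 0 to 1347 calls, 0 to 893 higher and 0 to 454 lower. The 0 was without Eff+ library 2, and 189, 451, 820 and 901 were called without Eff- library 2, Eff- library 1, Eff+ library 3 and Eff- library 3. Without both libraries numbered 2 edgeR called 0, with 0 higher and 0 lower. Other scalings, filters, voom, newer quasi-likelihood settings and leaving out genes of other cell types called 1582 to 2141.

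The labels share replicate numbers between groups without saying what a number marks. Some values followed the number in both sorts. The second principal component set apart the libraries numbered 1, and Lyz2 those numbered 2. Interferon-stimulated genes held 1.04 and 0.69% of counts in Eff+ and Eff- library 1, against 0.259 to 0.321% in the others. Deviations of same-numbered libraries from their group means correlated at 0.25, -0.011 and 0.13. Eff+ library 2 correlated best with Eff- library 3 (0.10). Pairing was thus not established, and the test as reported took no account of the number, which the labels do not explain. With the replicate block edgeR called 2985 genes (1717 higher, 1268 lower), and 441 genes for the difference between wound and culture, for which DESeq2 called 797. For that difference, leaving out 1 library gave 0 to 2009 calls. Of the 302 genes named by the rule, none of the 286 called ones changed sign under any alternative. Their groups did not overlap in CPM, so leaving libraries out could hardly turn a sign. Among the named genes that were not called, 2 changed sign. Itgam (0.14 as reported) was at -0.24 with library totals only, -0.040 without both libraries numbered 2 and from -0.0013 (without Eff- library 2) to 0.26 (without Eff- library 3) with 1 library left out. Lyz2 (-0.94 as reported) was at 0.17 with voom and with the replicate block, 0.87 without both libraries numbered 2 and from -8.30 (without Eff+ library 2) to 8.19 (without Eff- library 2) with 1 library left out. Library totals only ended the call of 39 and leaving out Eff+ library 2 that of 286. Calls were rare at low counts, with 1.24% called higher and 0.235% lower among the 2982 genes of lowest mean CPM, and the part of depth in this was not tested. Leaving out genes of other cell types left 5 lists of such cells without a value. Analyses with 1 culture library in a group assume that it varies like the others.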

Other observations

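Several gene groups outside the comparisons above held called genes. Of 19 inflammasome and pyroptosis genes 4 rose and none fell, although the list's median was -0.08. Nlrp3, the sensor of membrane damage, was at 801, 1765 and 1568 CPM in Eff+ and 304, 327 and 694 CPM in Eff- (1.64, SE 0.41), Txnip, a glucose-responsive arrestin, at 259, 248 and 290 CPM in Eff+ and 87.9, 44 and 103 CPM in Eff- (1.76, SE 0.30), and Casp4, the mouse caspase 11, at 276, 321 and 217 CPM in Eff+ and 125, 130 and 149 CPM in Eff- (1.01, SE 0.19). Every Eff+ library lay above every Eff- library for these 3 genes. Of 24 immediate early genes other than AP-1, which cells also switch on during tissue dissociation, 10 rose and 1 fell (median 0.81). Gadd45a, which responds to DNA damage and stress (1.88, SE 0.22), and Egr1 (1.13, SE 0.25) were among the rises. Integrin genes gave 1 rise and 2 falls among 14: Itgal, the LFA-1 alpha chain of leukocytes, rose (1.12, SE 0.19), and Itga6, a laminin receptor subunit (-1.21, SE 0.25), and Itgb5, a partner in vitronectin binding (-0.92, SE 0.20), fell. Of 17 heat shock and chaperone genes Dnajb1 rose (0.56, SE 0.15) and Chordc1 fell (-0.83, SE 0.20). Of 23 hypoxia response genes 2 rose, the histone demethylase gene Kdm3a (1.31, SE 0.25) and Arnt (0.66, SE 0.15). With 11.8% of the chaperone list and 8.70% of the hypoxia list called, against 11.2% of all tested genes, neither list stood out.

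By exon length, 6.16% of the 2985 shortest genes and 9.32% of the 2982 longest were called higher, and 2.65% and 3.72% lower. The share of counts from mitochondrial transcripts was 0.507, 0.481 and 0.339% for the Eff+ sort and 0.690, 0.932 and 0.460% for the Eff- sort, ranges that overlap, and none of the 15 tested genes of that chromosome was called. Ribosomal protein genes held 0.834, 0.714 and 0.763% in Eff+ and 1.37, 1.67 and 1.12% in Eff-, which do not overlap.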
